A study of Mus musculus with 6 samples.

Results

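In the prefrontal cortex of mice, 8 genes from the families of vesicular and plasma membrane glutamate transporters were followed. They are 3 vesicular transporters (Slc17a6, Slc17a7 and Slc17a8) and 5 plasma membrane carriers of the SLC1 family (Slc1a1, Slc1a2, Slc1a3, Slc1a4 and Slc1a6). They were taken by symbol from a table of 21878 genes, and all 8 were among the 14440 genes with enough counts to be tested. The bulk RNA-seq libraries came from 3 control and 3 Gls1_CamkIIaCre mice. Mice of both groups carried the CamKIIα-Cre transgene. Controls were littermates with 2 wild-type Gls1 alleles (CamKIIαCre;Gls1+/+, entered as WT among the sample labels). The Gls1_CamkIIaCre mice, called mutants here, had 1 floxed allele (CamKIIαCre;Gls1+/flox). Homozygous floxed mosaics did not survive and were not studied. Cre acts only in the forebrain neurons that express the transgene, and there as a mosaic, so glia, other neurons and the excitatory neurons missed by Cre keep both alleles of Gls1, the glutaminase that makes glutamate from glutamine. The tissue was not sorted, and its cell type is entered as all cells. No source used here gives the ages of the mice.

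Glutamate is loaded into synaptic vesicles by VGLUT proteins, which use the proton gradient set up by the vesicular ATPase. After release it is cleared from the extracellular space by the excitatory amino acid transporters (EAATs), which are driven by the sodium and potassium gradients and sit mostly on astrocytes in cortex. Astrocytes turn the recovered glutamate into glutamine and return it to neurons, where glutaminase regenerates glutamate.

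The 6 libraries held 17987807 to 19330961 counts. Of the 14440 genes tested, 1190 (8.24%) passed edgeR's quasi-likelihood test at an adjusted p under 0.05, 571 of them higher (3.95%) and 619 lower (4.29%) in the mutants. Markers of cortical excitatory neurons were abundant, as the tissue label implies, with summed CPM (counts scaled to library size, with TMM factors) of 6666 to 6858 in the controls and 6817 to 7523 in the mutants. Markers of the striatum, a neighbouring region, were also present: their sum was 847 to 1397 CPM in the controls and 340 to 392 CPM in the mutants, and 13 of 15 fell. Of other marker lists, 7 of 13 oligodendrocyte, 5 of 12 microglial, 5 of 12 endothelial and mural and 8 of 10 meningeal genes fell, and none rose. The summed FPKM (reads scaled both to library size and to gene length) was lower in every mutant library than in every control library (238924 to 243144 against 249602 to 252272). Every comparison of FPKM levels carries this shift.

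Members of each family resemble one another in sequence, which bears on how reads are assigned to them. Between the coding sequences of the GENCODE M21 transcripts, identity was 70.1% to 71.4% among the 3 vesicular transporters and 56.3% to 69.2% among the 5 plasma membrane carriers. Between families it was 46.8% to 51.6%. The stretches below, each 90 bases of coding sequence, are shown because they hold the longest runs shared by any pairs within a family, with the shared run in capitals.

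The Slc17a6 and Slc17a7 transcripts share a run of 21 bases in this window and differ at 15 of its positions.
Slc17a6: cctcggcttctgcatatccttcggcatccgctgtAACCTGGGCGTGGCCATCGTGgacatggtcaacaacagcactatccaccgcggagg
Slc17a7: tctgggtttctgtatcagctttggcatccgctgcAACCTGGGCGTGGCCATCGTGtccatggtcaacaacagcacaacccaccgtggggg
Slc17a6 and Slc17a8 share a run of 25 bases and differ at 19 positions of the window around it.
Slc17a6: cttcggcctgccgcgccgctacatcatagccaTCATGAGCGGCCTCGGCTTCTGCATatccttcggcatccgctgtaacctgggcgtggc
Slc17a8: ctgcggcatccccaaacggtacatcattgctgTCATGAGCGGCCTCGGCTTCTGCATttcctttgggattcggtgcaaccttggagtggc
Slc1a3 and Slc1a6 share a run of 26 bases, the longest among the pairs within a family, and differ at 14 positions.
Slc1a3: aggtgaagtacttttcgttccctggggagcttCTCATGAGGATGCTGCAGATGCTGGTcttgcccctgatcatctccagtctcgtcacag
Slc1a6: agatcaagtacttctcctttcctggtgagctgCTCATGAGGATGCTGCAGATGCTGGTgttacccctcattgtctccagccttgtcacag
No exact run shared within a family was longer than 26 bases. No source used here tells how reads matching more than 1 gene were counted.

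Levels of the 8 genes spanned almost 3 orders of magnitude, and were compared in FPKM because it is scaled for length. Slc17a7, which encodes VGLUT1, the main vesicular transporter of cortical excitatory neurons, had the highest level, with a mean of 529 FPKM over the 6 libraries (500.2 to 599 FPKM), rank 22 of all genes. It was followed by the astrocytic carriers Slc1a2 (EAAT2, also GLT1), with a mean of 189 FPKM (181 to 197 FPKM), and Slc1a3 (EAAT1, also GLAST), with 118 FPKM (108 to 122 FPKM). Next came Slc1a1 (EAAT3, the carrier of neuronal cell bodies and dendrites), with 32.1 FPKM (30.9 to 32.9 FPKM), and Slc1a4 (ASCT1, an exchanger of neutral amino acids such as serine and alanine), with 15.2 FPKM (14.3 to 16.3 FPKM). The lowest were Slc17a6 (VGLUT2, the transporter of many subcortical and thalamic projection neurons) with 3.64 FPKM, Slc1a6 (EAAT4, best known from cerebellar Purkinje cells) with 2.55 FPKM and Slc17a8 (VGLUT3, found in scattered serotonergic, cholinergic and GABAergic neurons) with 0.664 FPKM. No ranges of neighbours in this order overlapped, and the smallest step was the 1.43-fold one between Slc17a6 and Slc1a6. The order differs in counts, where Slc1a2, whose coding transcript runs to 11595 bases, ranked 3 of all genes (58945 to 67293 counts) and Slc17a7, at 2915 bases, ranked 26 (25603 to 30283 counts). Counts and FPKM together imply other lengths, of 17707 to 17985 bases for Slc1a2 and 2658 to 2813 bases for Slc17a7. Levels and shares in FPKM depend on the lengths used to make them, which are not given.

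**Figure D1:**
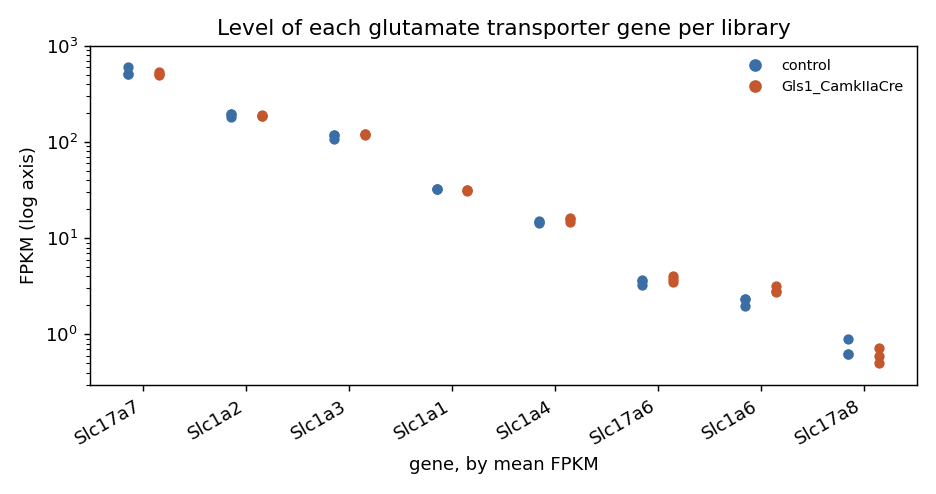
FPKM of each transporter gene (log axis) in 3 control and 3 Gls1_CamkIIaCre libraries, with 1 point per library. Genes stand in order of their mean level, from 529 FPKM for Slc17a7 to 0.664 FPKM for Slc17a8, and within every gene the libraries lie much closer together than the neighbouring genes do, apart from the step between Slc17a6 and Slc1a6.

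The comparison of mutant with control asks whether transcripts of glutamate loading and uptake differ when part of the CamKIIα-Cre neurons lose 1 Gls1 allele. None of the 8 genes passed edgeR's test over all genes, against 8.24% of tested genes. The adjusted p lay between 0.219 and 0.910, 4 of the genes had a log2 fold change above 0 and 4 below, and the median was 0.03 (all tested genes: -0.0024). One of the 8, Slc1a3, had an unadjusted p under 0.05, a mark that 22.4% of tested genes reached. DESeq2 and limma voom called 0 of the 8 as well. In bulk tissue, fewer cells of a type and less RNA per cell cannot be told apart, and this holds for every value given here.

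**Figure D2:**
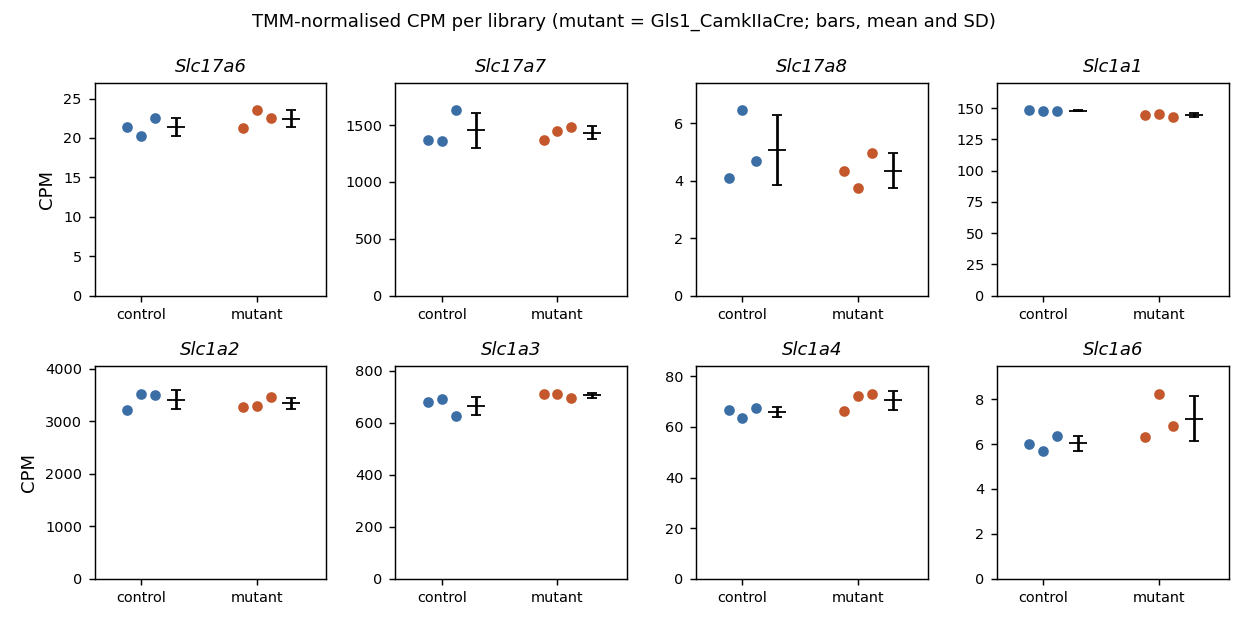
TMM-normalised CPM of each transporter gene in each library (points), with the mean and SD of the 3 libraries of a group (bars), on axes that start at 0. The groups do not overlap for Slc1a1 (lower in mutants) and Slc1a3 (higher in mutants), and they overlap for the other 6 genes.

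Among the vesicular transporters, Slc17a7 (chr7:45163921-45176139, plus strand, GRCm38.p6) had 1369.5, 1359 and 1629.6 CPM in the controls and 1371, 1447 and 1482 CPM in the mutants. Control 3 was the highest of all libraries, and the mutants lay inside the range of the controls. The means were 1453 ± 153 and 1433 ± 56.8 CPM (SD, n = 3 per group), with a log2 fold change of -0.02 ± 0.067 (SE, edgeR adjusted p = 0.910). The 95% interval of the change ran from -11.0% to 9.46%. Without control 3 the sign turned (0.07), and so it did without mutant 1 (0.01), so no direction can be given for this gene.

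Cortical excitatory neurons make VGLUT1. Of 13 of their markers, 3 were called higher (Neurod2, Fezf2 and Mef2c) and none was called lower, against 3.95% and 4.29% of all tested genes. The median log2 fold change of the markers was 0.14. Their mean level relative to the 6 libraries overlapped, at 0.915 to 1.027 in the controls and 0.991 to 1.097 in the mutants. Relative to the mean log2 CPM of these markers, Slc17a7 stood 3.24 to 3.34 log2 units higher in the controls and 3.11 to 3.16 in the mutants, and 25.0% of all tested genes were likewise lower in all mutants on this scale. For Slc1a1, the neuronal plasma membrane carrier, the same difference was -0.12 to 0.052 in the controls and -0.26 to -0.098 in the mutants, and the groups overlapped. Their part in the result for Slc17a7 was not tested.

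Slc17a6 (chr7:51621830-51671126, plus strand) had 21.3, 20.3 and 22.5 CPM in the controls and 21.3, 23.5 and 22.6 CPM in the mutants. Mutant 2 was the highest library, and the groups overlapped. The log2 fold change was 0.07 ± 0.076 (SE, edgeR adjusted p = 0.642), with an interval from -5.84% to 17.3%, and it was 0.04 without control 2 or without mutant 2. Because VGLUT2 is made by thalamic and hypothalamic neurons, markers of those regions were counted: 7 of 16 had enough counts to be tested, 0 of the 7 were called, and their sum was 136 to 148 CPM in the controls and 142 to 162 CPM in the mutants. Most of that sum was Rora (82.3 to 100.1 CPM per library). The neuropeptide genes Hcrt and Pmch had 0 to 3 and 2 to 6 counts per library, whereas Trh had 120 to 297, Prkcd 184 to 244 and Ntng1 392 to 595. Tcf7l2 had 63 to 106 counts, Lhx9 5 to 12 and Gbx2 0 to 4. The part of these regions in the Slc17a6 values was not tested.

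Slc17a8 (chr10:89574020-89621249, minus strand) was measured from only 67 to 123 counts per library. It had 4.08, 6.45 and 4.68 CPM in the controls and 4.34, 3.73 and 4.96 CPM in the mutants. Control 2 stood above all other libraries, which overlapped. The log2 fold change was -0.22 ± 0.185 (SE, edgeR adjusted p = 0.530), and the interval, -34.2% to 12%, was the widest on the lower side among the 8 genes. Without control 2 the log2 fold change was -0.0081 (edgeR adjusted p = 0.990). Control 2 was also the library with the highest striatal markers, whose mean level relative to the 6 libraries was 1.198, 2.10 and 1.41 in controls 1 to 3, against 0.394, 0.417 and 0.482 in mutants 1 to 3. The striatum holds cholinergic interneurons that use VGLUT3, and the part of this tissue in the Slc17a8 values was not tested.

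The astrocytic pair takes up most of the glutamate released in cortex. Slc1a2 (chr2:102658239-102790784, plus strand) had 3209.8, 3526 and 3499.6 CPM in the controls and 3276, 3284 and 3467 CPM in the mutants. The mutants lay within the range of the controls, of which control 1 was the lowest. The means were 3412 ± 175 and 3342 ± 108 CPM (SD, n = 3 per group), with a log2 fold change of -0.03 ± 0.043 (SE, edgeR adjusted p = 0.746). The interval of the change ran from -7.92% to 4.22%, and the log2 fold change was -0.07 without control 1 and -0.0033 without control 2. An antisense gene, Gm13872, lies within its span, and reads of both strands cannot be told apart where the counting did not use strand.

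Slc1a3 (chr15:8634124-8710807, minus strand) had 678, 690.4 and 625 CPM in the controls and 711, 708 and 695 CPM in the mutants. Every mutant lay above every control, with control 3 the lowest library, but 13.1% of tested genes were separated in this direction in CPM. The means were 664 ± 34.7 and 705 ± 8.49 CPM (SD, n = 3 per group). The log2 fold change was 0.09 ± 0.041 (SE, edgeR unadjusted p = 0.0488, adjusted p = 0.219), with an interval from 0.0348% to 12.5%, and it did not pass. Without control 3 it was 0.04 (edgeR adjusted p = 0.580). Its size was below the median absolute log2 change of all tested genes (0.093). The ratio of Slc1a3 to Slc1a2 in FPKM was 0.554 to 0.648 in the controls and 0.617 to 0.659 in the mutants, and the groups overlapped.

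Of 15 astrocyte markers, all tested, 5 fell (Gja1, Gjb6, Aldoc, S100b and Ntsr2) and 0 rose, against 4.29% and 3.95% of all tested genes. The median log2 fold change of the markers was -0.15, and their summed level was 2743 to 2778 CPM in the controls and 2491 to 2533 CPM in the mutants. Relative to the mean log2 CPM of these markers, Slc1a3 stood 2.40 to 2.55 log2 units higher in the controls and 2.71 to 2.75 in the mutants. For Slc1a2 the same difference was 4.74 to 4.90 in the controls and 4.91 to 5.05 in the mutants. On this scale both carriers were higher in all mutants than in any control, as were 47.0% of all tested genes, on a scale whose reference lay lower in the mutants. The part of astrocyte markers in the values of Slc1a2 and Slc1a3 was not tested.

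**Figure D3:**
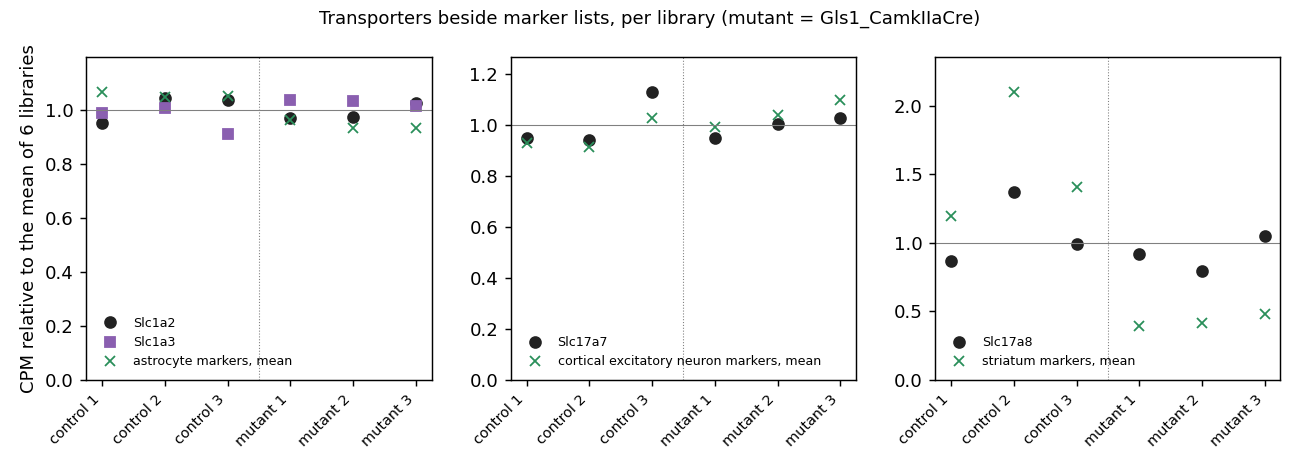
CPM of transporters, and the mean over marker lists of the same quantity, each relative to its mean over the 6 libraries, with controls left and Gls1_CamkIIaCre (mutant) libraries right of the dotted line. Astrocyte markers (left panel) lie lower in all mutants while Slc1a2 and Slc1a3 do not, excitatory neuron markers (middle) and Slc17a7 overlap between the groups, and Slc17a8 and striatal markers (right) are both highest in control 2.

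Slc1a1 (chr19:28835135-28913960, plus strand), the neuronal carrier that also takes up cysteine, had 148.2, 147.8 and 147.8 CPM in the controls and 144.5, 145.5 and 142.6 CPM in the mutants. All mutants were lower, as were those of 13.6% of tested genes, and the step was small. The means were 148 ± 0.261 and 144 ± 1.48 CPM (SD, n = 3 per group), with a log2 fold change of -0.04 ± 0.040 (SE, edgeR adjusted p = 0.647) and an interval from -7.93% to 3.198%. Together with Slc1a3, this made 2 of 8 genes whose groups did not overlap, next to 26.7% of all tested genes. The span of Slc1a1 overlaps the protein-coding gene 4430402I18Rik on the opposite strand, so some of its reads could belong to that gene.

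Slc1a4 (chr11:20302180-20332713, minus strand), which in brain helps to move serine between astrocytes and neurons, had 66.8, 63.7 and 67.3 CPM in the controls and 66.1, 72.1 and 73.1 CPM in the mutants. Mutants 2 and 3 were above all controls, and mutant 1 lay among the controls. The log2 fold change was 0.10 ± 0.052 (SE, edgeR adjusted p = 0.295), with an interval from -0.872% to 15.2%.

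Slc1a6 (chr10:78780086-78814825, plus strand) had the highest fold change of the 8 genes, from 109 to 148 counts per library. It had 6.02, 5.71 and 6.35 CPM in the controls and 6.32, 8.25 and 6.80 CPM in the mutants. Mutant 2 was the highest library and mutant 1 lay within the controls. The means were 6.03 ± 0.319 and 7.12 ± 1.00 CPM (SD, n = 3 per group), with a log2 fold change of 0.24 ± 0.140 (SE, edgeR adjusted p = 0.334) and an interval from -3.61% to 44.5%. Without mutant 2 the log2 fold change was 0.12 (edgeR adjusted p = 0.728). Of 11 cerebellar and hindbrain markers, 5 were tested and 0 were called. Their sum, 841 to 952 CPM in the controls and 899 to 985 CPM in the mutants, was almost wholly Itpr1 (799.6 to 945 CPM). Car8 had 265 to 351 and Cbln1 148 to 218 counts per library, while Pcp2, Gabra6 and Slc6a4 had at most 2, 1 and 3. The part of these tissues in the Slc1a6 values was not tested.

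**Figure D4:**
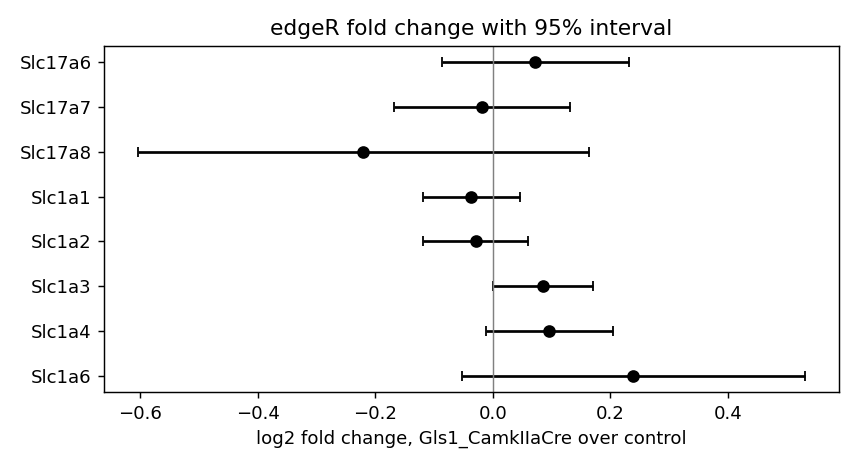
Log2 fold change of each transporter gene, Gls1_CamkIIaCre over control, from edgeR (points) with its 95% interval (bars). The intervals of 7 genes include 0, that of Slc1a3 just excludes it before adjustment over all genes, and those of Slc17a8 and Slc1a6, the genes with the fewest counts, are the widest.

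The 2 deposited tables gave different pictures for Slc1a6. In FPKM its values were 2.31, 1.96 and 2.31 FPKM in the controls and 2.72, 3.18 and 2.83 FPKM in the mutants, and the groups no longer overlapped, as for 9.67% of tested genes in this direction. The difference on log2(FPKM + 0.1) was 0.40 (limma adjusted p = 0.0579) and on log2(FPKM + 1) 0.29 (limma adjusted p = 0.0595). With FPKM rescaled to a common sum per library, a setting chosen after seeing the data, the log2 difference was 0.34 and passed (limma adjusted p = 0.0423), where 639 genes (4.43%) passed, 366 of them higher (2.53%). Dividing the counts by the FPKM gives the length that both tables imply together: 2644, 2931 and 2738 bases in the controls and 2323, 2586 and 2367 bases in the mutants. All mutants were lower on this length too, by a log2 ratio of -0.19, and only 15 of 12602 genes with a mean of 50 counts or more had a lower ratio. A fixed gene length would give nearly the same ratio for every gene, and the median over genes was 0.01. For the other 7 transporters the ratio lay between -0.03 (Slc17a6) and 0.04 (Slc17a7). The groups were also apart in implied length for Slc17a7 (mutants higher) and Slc1a2 (mutants lower), where 73.3% and 24.8% of genes had a lower ratio. No source used here tells how the FPKM values were made, and why Slc1a6 differs between the tables was not tested.

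**Figure D5:**
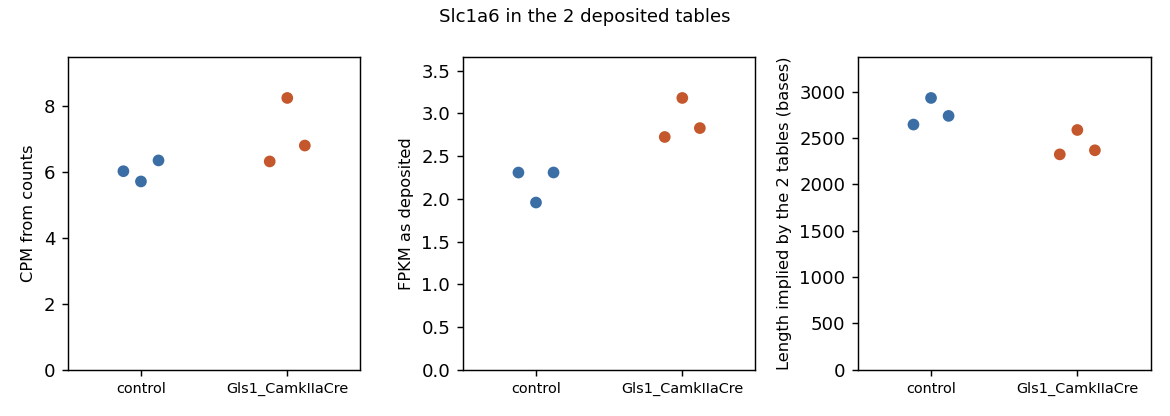
Slc1a6 in each library as CPM from the deposited counts (left), as deposited FPKM (middle) and as the length in bases implied by both tables (right), on axes that start at 0. Control and Gls1_CamkIIaCre libraries overlap in CPM, and are apart in FPKM (mutants higher) and in implied length (mutants lower).

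The make-up of each family was compared as shares of its summed FPKM, in which library scaling cancels. Slc17a7 made up 99.22% of the vesicular FPKM in the controls and 99.16% in the mutants, lower in all mutants (exact permutation p = 0.1). Shares of a family add up to the whole, so this mirrors the share of Slc17a6. The share of Slc17a6 was 0.690%, 0.635% and 0.613% for the controls, against 0.695%, 0.774% and 0.698% for the mutants. The mutants were higher in all 3 libraries, by 0.0766 percentage points in the means (exact two-sided permutation p = 0.1, the smallest that 3 against 3 allow; adjusted p = 0.333). With CPM in place of FPKM the groups overlapped (exact permutation p = 0.3). The length implied by counts and FPKM moved in opposite directions for Slc17a6 (log2 ratio of -0.03) and Slc17a7 (0.04). How often other genes separate on such shares was not counted. Slc17a8 had 0.133 ± 0.0367% of the vesicular FPKM in the controls and 0.117 ± 0.0185% in the mutants (SD, n = 3 per group, exact permutation p = 0.6).

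Among plasma membrane carriers, Slc1a2 held 53.8 ± 1.64% of the FPKM in the controls and 52.3 ± 0.836% in the mutants (SD, n = 3 per group, exact permutation p = 0.2). Slc1a3 held 32.3 ± 1.57% and 33.7 ± 0.730% (exact permutation p = 0.2), so that the astrocytic pair made up most of the uptake transcripts in both groups. Slc1a1 had 9.18% and 8.78% (exact permutation p = 0.2), and Slc1a4 4.17% and 4.36% (exact permutation p = 0.3). The share of Slc1a6 was 0.617 ± 0.0690% in the controls and 0.812 ± 0.0676% in the mutants, with no overlap between the groups (exact permutation p = 0.1, adjusted p = 0.333). As levels in FPKM, 9.67% of tested genes were higher in all mutants. This share rests on the Slc1a6 FPKM, whose implied length differed between the groups by a log2 ratio of -0.19, and in CPM the Slc1a6 groups overlapped.

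The summed vesicular level was 547 ± 49.1 FPKM in the controls and 520.4 ± 17.5 FPKM in the mutants, and the summed plasma membrane level 356 ± 7.89 and 359 ± 2.63 FPKM (SD, n = 3 per group, exact permutation p = 0.6 for both). The controls spread more than the mutants in both sums, and the groups overlapped. With FPKM rescaled to a common sum per library, a setting chosen after seeing the data, the plasma membrane sum was 348 in the controls and 366 in the mutants, a difference of 18.2 FPKM in place of 2.98, and the groups were apart (exact permutation p = 0.1). On this rescaled level, 19.1% of all tested genes were likewise higher in all mutants than in any control. Over these 10 exact tests the lowest adjusted p was 0.333, and a design of 3 against 3 cannot fall below 0.1 before adjustment.

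Genes that work with the transporters were counted from lists. Among 16 partners and ion-gradient genes of uptake, 2 fell and 1 rose, against 4.29% and 3.95% of all tested genes. The median log2 fold change of the list was -0.00052. Kcnj10, the inward-rectifier potassium channel of astrocytes that sits beside EAAT2 in their processes, was called lower, at 252 ± 6.22 in the controls against 201 ± 9.91 CPM in the mutants (SD, n = 3 per group), a log2 difference of -0.33 ± 0.042 (SE, edgeR adjusted p = 0.000120). It was lower in 3 of 3 mutants than in any control, as were 13.6% of all tested genes, and it is an astrocyte gene like the markers given above. Slc9a3r1, a PDZ scaffold protein, fell by 0.20 (edgeR adjusted p = 0.0467), and Arhgef11, a guanine nucleotide exchange factor that binds EAAT4, rose by 0.15 (edgeR adjusted p = 0.0400). These smaller calls were lost in most fits that left out 1 library (edgeR adjusted p of 0.0732 to 0.166 for Slc9a3r1 without each library, and of 0.0609 to 0.161 for Arhgef11 without each library but mutant 3), and with DESeq2 (0.156 and 0.0762).

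For vesicle loading, 1 of 18 genes of vesicle acidification was called, against 8.24% of all tested genes, and the median of the list was -0.0048. The called gene, Atp6v1g1, a subunit of the proton pump, stood at 86.8 CPM in the controls and 77.4 CPM in the mutants. It fell by 0.17 on the log2 scale (edgeR adjusted p = 0.0273). That call was lost without each library in turn (edgeR adjusted p of 0.0576 to 0.0971) and with DESeq2 (0.0648). Of the 8 genes that load other transmitters or belong to the SV2 family, 6 were tested and 2 fell, against 4.29% of all tested genes. Sv2c, a vesicle protein abundant in the striatum and basal ganglia, fell from 22.3 ± 3.47 CPM in the controls to 14.4 ± 1.19 CPM in the mutants (SD, n = 3 per group), with an edgeR adjusted p of 0.00117, beside the fall of striatal markers given above. Slc32a1, the vesicular transporter of GABA and glycine, fell by 0.23 on the log2 scale (edgeR adjusted p = 0.0432), with overlapping groups, and the call was lost without control 1, control 2, mutant 1 or mutant 3 (adjusted p of 0.116 to 0.165). Beside it, 3 of 13 interneuron markers fell (Gad2, Sst and Slc32a1 itself).

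Of 12 genes of glutamate and glutamine metabolism, 1 was called, against 8.24% of all tested genes. Slc25a12, the mitochondrial aspartate-glutamate carrier of neurons, rose from 149 ± 5.88 CPM in the controls to 173 ± 5.54 CPM in the mutants (SD, n = 3 per group), a log2 difference of 0.22 ± 0.043 (SE, edgeR adjusted p = 0.00414). All mutants exceeded all controls, as they did for 13.1% of all tested genes. Of 10 genes for glutamine transport and cystine-glutamate exchange, Slc3a2, the heavy chain shared by several amino acid exchangers, rose by 0.15 (edgeR adjusted p = 0.0443), a call lost without each library (edgeR adjusted p of 0.0552 to 0.173) and with DESeq2 (0.0814), and the median of the list was 0.10. The other 8 genes of the SLC1 and SLC17 families include 2 with enough counts to test, and neither was called. The lower p was that of Slc1a5 (ASCT2, a glutamine exchanger), at 4.73 ± 0.398 CPM in the controls and 3.23 ± 0.699 CPM in the mutants (SD, n = 3 per group), a log2 difference of -0.55 ± 0.185 (SE, edgeR adjusted p = 0.0742). It had only 48 to 99 counts per library. It passed without mutant 1 (edgeR adjusted p = 0.0426) and in limma on log2(FPKM + 1) (adjusted p = 0.0407) and log2(FPKM + 0.1) (0.0425). Slc1a5 did not pass without any other library (edgeR adjusted p of 0.103 to 0.268) or with DESeq2 (0.189). Nor did it pass with limma voom (0.0750) or in limma on FPKM rescaled to a common sum (0.0549).

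The genes whose pattern over the 6 libraries was most like each transporter were found by the mean absolute difference of centred log2(CPM + 0.5), among 10030 genes with a mean of 10 CPM or more. For Slc17a7 they were Svop, Syn2 and Lingo1, at 0.017 to 0.020 log2 units, against a median of 0.096 over all genes. Svop and Syn2 encode synaptic vesicle proteins. Slc1a2 was nearest to Polr2e, Rab11fip5 and Sdf4 (0.0091 to 0.012), and Slc1a3 to Wdr33, Apbb3 and Heca (0.0099 to 0.014). Slc1a4 was nearest to Jph4, Hmga1 and Ppp1r13b, Slc17a6 to Vcp, Tut1 and Pianp, and Slc1a1 to Hnrnpa3, Chmp4b and Nfia. No test was made of these likenesses. Slc17a8 and Slc1a6 were below 10 CPM and were not matched.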

How the data were processed

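Bulk RNA-seq was made from prefrontal cortex of 3 control and 3 Gls1_CamkIIaCre mice. Per the labels' protocols, libraries were built from TRIzol-extracted RNA by SMARTer mRNA-Seq chemistry. The submitters' processing notes name GRCm38 (mm10) as the build. For the aligner, the counter, the use of strand and the FPKM tool, the answer is not given in the sources used here. As deposited, one table gives counts per gene (whole numbers) and another gives FPKM for those genes in every library. Both tables were used as deposited, except that 27 symbols stored as dates were restored through their gene identifiers.

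The test of the counts was that of edgeR 4.0.16 under R 4.3.3 (TMM, filterByExpr, robust quasi-likelihood fit, no covariate, Benjamini-Hochberg over 14440 genes, threshold 0.05). The procedure was also run on simulated counts with the same dispersion for every gene, which cannot show how it does on these libraries. The common biological coefficient of variation was 4.75%. FPKM alternatives used limma 3.58.1 on log2(FPKM + 1) or log2(FPKM + 0.1), which understate changes of low genes. DESeq2 1.42.0, limma voom, other scalings, filters and left-out libraries were further alternatives. Shares and sums were compared by exact two-sided permutation over 20 splits. Coordinates are RefSeq's for GRCm38.p6 (21727 genes matched by identifier), and sequences come from GENCODE M21 transcripts. Precision at low levels is limited by counts of 67 to 148 per library for Slc17a8 and Slc1a6. The libraries of a group differed beyond sampling noise, so none was counted as a duplicate.

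Named genes are the 8 transporters, list members that passed (up to 6 per list by smallest p, or the one of smallest p where none passed), and the 3 genes most alike to each transporter with a mean of 10 CPM or more, unnamed models left out. Members and lists were chosen with earlier results of these data known. The targeted transcript and 1 other list member are not reported here and are left out of the list counts.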

Additional observations from a re-analysis of the deposited data

How the results depend on the processing

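Of 17 alternatives per transporter, none brought any of the 8 past the threshold except limma on log2(FPKM + 1) with FPKM rescaled to a common sum, chosen after seeing the data: 1 of the 8 passed there (Slc1a6, 0.34), 639 genes were called (366 higher, 273 lower), and the signs of Slc1a1 (0.010) and Slc1a2 (0.034) were reversed. The sign of Slc17a7 was also reversed when libraries were left out (log2 fold change of -0.063 to 0.072). Called genes numbered 674 (116 higher) on log2(FPKM + 1) and 729 (122 higher) on log2(FPKM + 0.1), beside the lower FPKM sums of the mutants, and upper-quartile factors gave 429 higher and 749 lower. Leaving out each library gave 415 to 1098 called genes (197 to 556 higher, 218 to 542 lower): 415 without mutant 2, 635 without control 2, 763 without control 1 and 778 without mutant 1. With the replicate number as a block 1758 genes were called (863 higher, 895 lower) and none of the 8, and Slc1a5 passed (edgeR adjusted p = 0.0474). Deviations of same-numbered libraries correlated at 0.14, -0.026 and 0.14 (numbers 1, 2 and 3), and those of libraries of unlike number at -0.17 to 0.047. The values of numbers 1 and 3 were thus the highest, while control 2 correlated best with mutant 3 (0.036). These values do not decide whether the numbers pair mice. The labels do not say that they do, so the main fit had no block. Of 76 alternatives for shares and sums 72 kept their direction. The difference in the plasma membrane sum was reversed to -27.3 in CPM. Leaving out each library gave differences of -0.71 (without control 1) to 7.13 FPKM for the plasma membrane sum, -41.4 to 1.62 FPKM (without control 3) for the vesicular sum and -0.030 to 0.0052 percentage points (without control 2) for the Slc17a8 share. The cause of these changes was not tested. Levels of Slc17a8 and Slc1a6 are limited by depth.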
